A study of Rattus norvegicus with 16 samples.

Results

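Transcript levels of cultured rat pancreatic islets at stimulatory glucose were compared with those at sub-stimulatory glucose. The stimulatory side holds the 8 arrays of islets kept for 18 h at 10 or 30 mmol/l glucose and the sub-stimulatory side the 8 arrays at 2 or 5 mmol/l, which together are all 16 arrays of the series. The difference was the mean of the 10 and 30 mmol/l group means minus the mean of the 2 and 5 mmol/l group means, on log2 signal, with the replicate number as a pairing term. It was taken over the 31042 of 31099 probe sets that are not array controls. The islets came from male Wistar rats and had all spent 1 week in serum-free RPMI medium with 10 mmol/l glucose and 5 g/l BSA before 1000 of them went to each concentration. There was no untreated arm. The 10 mmol/l islets stayed at their preculture concentration, whereas the 2, 5 and 30 mmol/l islets were moved to another. Per the labels 4 experiments were done on different islet preparations, and each gave 1 Affymetrix Rat230_2 array per concentration (4 arrays each). Signals are in the deposited table's scaled units, and the number of arrays, rather than a count of reads, limits their precision.

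Islets are small endocrine organs in which insulin-producing beta cells sit beside alpha, delta and PP cells. In the beta cell, glucose enters through a transporter, is phosphorylated and burnt, and the resulting ATP closes potassium channels, so that calcium enters and insulin granules fuse with the cell membrane. This response has a threshold a little above the fasting blood glucose, and the groups of 2 and 5 mmol/l lie below it and those of 10 and 30 mmol/l above it. Metabolic signals also reach the nucleus, where transcription factors activated by sugar phosphates, sterol shortage, cAMP or calcium alter transcription, while cells short of glucose engage stress pathways that slow protein synthesis.

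The tissue label was checked against markers. Ins1, Ins2, Iapp, Gcg and Sst, the hormone genes of beta, alpha and delta cells, were among the brightest probe sets, with signals from 4783 to 13698 over all arrays. Of 14 matched markers of digestive acinar cells, 13 lay under the level needed for testing, with no signal above 58.0. Summed over tested markers, arrays lay within 25431 to 35099 at low and 36153 to 48836 at high glucose for beta cells, within 11772 to 16325 and 16205 to 19870 for alpha cells and within 7150 to 9123 and 9758 to 11676 for delta cells. They lay within 6429 to 7695 for duct cells at low and 6218 to 7282 at high glucose, and within 279 to 448 and 246 to 422 for endothelial cells. Macrophage markers summed to between 491 and 680 and between 562 and 785, and stellate cell markers to between 1901 and 4342 and between 2396 and 5980. In bulk tissue, fewer cells of a type and less RNA per cell cannot be told apart. On each array run the fluidics position and the scan order followed the glucose concentration, so these and the concentration cannot be told apart. The spiked hybridization controls were higher at stimulatory glucose by 0.28 on the log2 scale in 4 of 4 preparations (exact permutation test within preparations, p = 0.0216, adjusted p = 0.0648 over 3 quality measures). The 3' to 5' ratio of Actb was higher by 0.12 in 4 of 4 (exact p = 0.0448, adjusted p = 0.0671), and that of Gapdh in 2 of 4 (exact p = 0.9). Mean log2 ratios of Actb were 0.815 at 2, 1.03 at 5, 1.05 at 10 and 1.03 at 30 mmol/l, lowest at 2 mmol/l. Means of the hybridization controls were 9.42 at 2, 9.61 at 5, 9.92 at 10 and 9.67 at 30 mmol/l, highest at 10 mmol/l. The part of these quality measures in the results below was not tested.

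Most of the tested genes differed between the sides, mostly by small amounts. A gene was called when its adjusted p from limma, over all 18625 tested probe sets (51.6% of which were called), was under 0.05, and from 2 to 5 and from 10 to 30 mmol/l 9.87% and 14.8% of probe sets were, or 11.4% and 17.7% of genes. Of 10223 tested genes, 5750 were called (56.2%), 2489 of them higher at stimulatory glucose (24.3%) and 3261 lower (31.9%). The median log2 difference was 0.39 among called increases, -0.43 among called decreases and -0.03 over all tested genes. Called genes with at least a 2-fold difference were fewer: 117 were higher (1.14%) and 231 lower (2.26%). In 565 genes (5.53%) all 8 stimulatory arrays lay above all 8 sub-stimulatory ones, and in 922 (9.02%) all lay below. The sign was the same in all 4 preparations for 2351 of the called increases and 3080 of the called decreases, which is 94.5% of each. For 2210 of the increases and 2978 of the decreases, both stimulatory group means lay beyond both sub-stimulatory ones. P-values set each mean difference against how far differences between concentrations varied from preparation to preparation, each with 1 array per concentration. This spread was moderated by limma over all tested probe sets. The overall level of a preparation was taken out by the pairing term. Where several tested probe sets named 1 gene, calls could disagree: of 1158 genes with at least 2 called probe sets, 86 had calls in both directions.

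The thioredoxin-binding arrestin Txnip, a well-known glucose-induced gene, had the largest increase. Txnip signals ran from 73.0 to 132 (median 95.8) in the 8 sub-stimulatory arrays and from 281 to 5015 (median 1597) in the 8 stimulatory ones. No stimulatory array overlapped a sub-stimulatory one, and the 30 mmol/l arrays stood far above the 10 mmol/l arrays (group means 83.3 at 2, 115 at 5, 346 at 10 and 3882 at 30 mmol/l). The difference was 3.54 ± 0.11 on the log2 scale (SE, n = 4 preparations, adjusted p = 1.27e-13 by limma), or 11.7-fold. Tmem215, which codes for a transmembrane protein, had the smallest p of any increase. Sub-stimulatory arrays gave Tmem215 signals between 689 and 986, with a median of 816, against 3199.7 to 4079, with a median of 3475, in stimulatory arrays. The groups of each side lay close together (means 786 at 2, 867 at 5, 3615 at 10 and 3498 at 30 mmol/l), and the gap between the sides gave 2.11 ± 0.05 (adjusted p = 2.63e-15). The share of the variation between the 4 concentrations that lay in this contrast was 99.7% for Tmem215 and 67.0% for Txnip. In low glucose the lowest, median and highest signal of Adra2a were 119, 184 and 258, and in high glucose they were 634, 753 and 854. Adra2a, the alpha-2A adrenergic receptor through which adrenaline inhibits insulin release, was above its whole sub-stimulatory range in every stimulatory array (2.01 ± 0.08, adjusted p = 2.22e-12). Gem, a GTPase known to curb voltage-gated calcium entry, had group means of 96.7 at 2, 94.8 at 5, 423 at 10 and 626 at 30 mmol/l (2.41 ± 0.11, adjusted p = 5e-12). Rgs16, a regulator that ends G protein signalling, and Gpr6, an orphan receptor, rose by 2.18 ± 0.12 and 1.97 ± 0.11. Other large increases without overlap were the lysophospholipid transporter Mfsd2a (2.47 ± 0.14), the poly(A) polymerase Tent5a (2.27 ± 0.08), the kinetochore gene Dsn1 (2.08 ± 0.13), Btbd8 (2.16 ± 0.09) and Bpifa2f (2.79 ± 0.21), the last at signals no higher than 119.

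**Figure D1:**
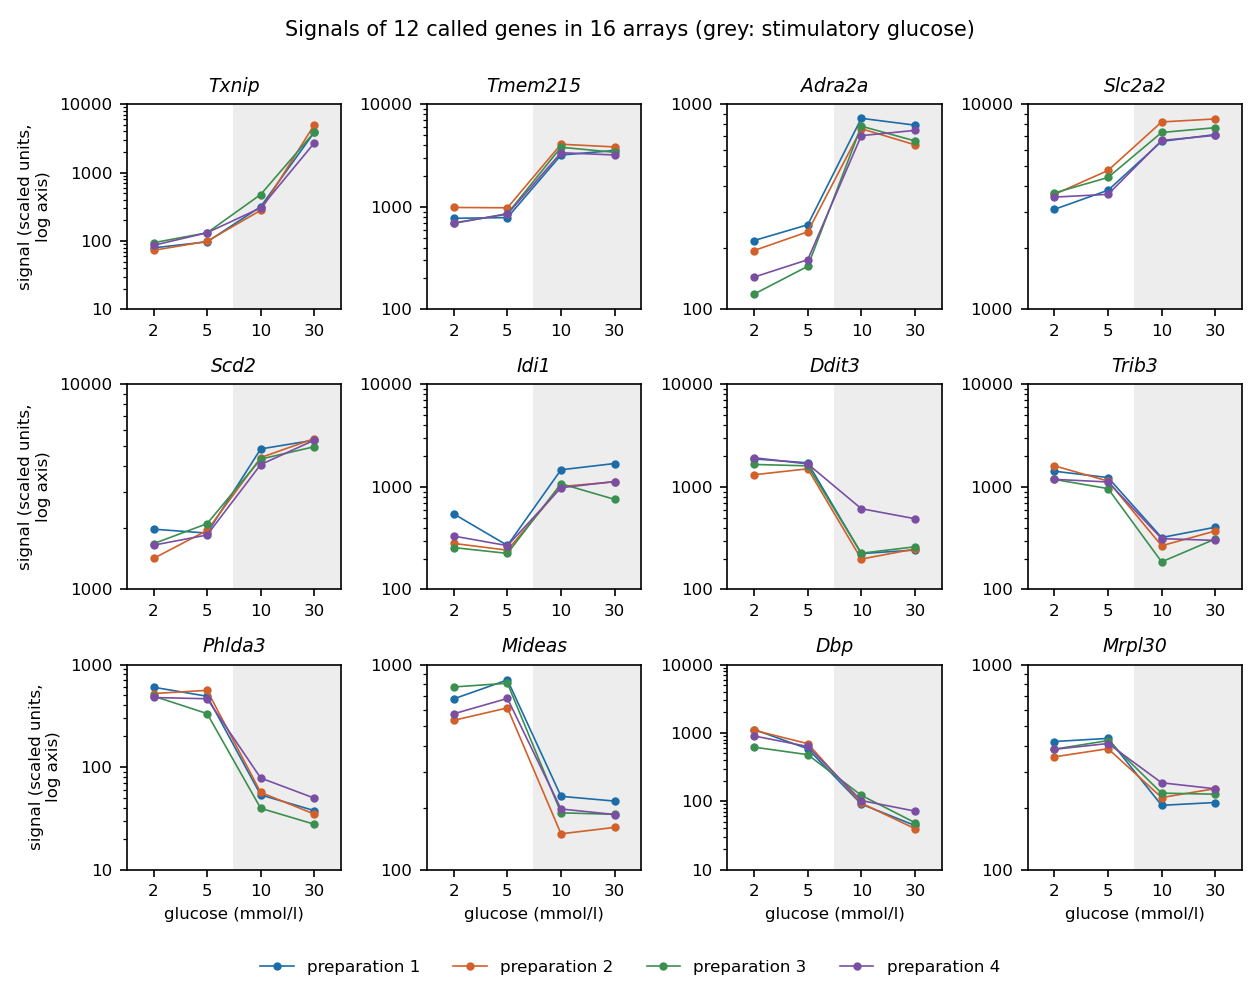
Signals (log axis, deposited scaled units) of 12 called genes against glucose concentration. Each point is 1 array and each line 1 of 4 islet preparations; the grey area marks stimulatory glucose. In all 12 genes the 8 arrays on the right lay wholly above or wholly below the 8 on the left; Tmem215 and Mrpl30 stepped once, and Txnip climbed again to 30 mmol/l.

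Gtse1, which binds p53 and is made late in the cell cycle, had the largest decrease. Gtse1 spanned 89.8 to 256 (median 158) below and 2.90 to 23.9 (median 8.85) above the threshold. Stimulatory arrays were dim, and signals below 3.4 were set to 3.4, so the log2 difference of -4.02 ± 0.29 (adjusted p = 2.78e-09) depends on values near that floor. Mideas, a subunit of a histone deacetylase complex, Stau2, an RNA transport protein, and Rragd, a GTPase that tells mTORC1 of amino acids, had the smallest p-values among decreases after Phlda3, which is described with the p53 targets. Mideas signals ran from 535 to 841 (median 682) in the 8 sub-stimulatory arrays and from 149 to 228 (median 188) in the 8 stimulatory ones. The ranges were far apart, with group means of 642 at 2, 737 at 5, 191 at 10 and 187 at 30 mmol/l (-1.86 ± 0.06, adjusted p = 1.27e-13, share 99.4%). Sub-stimulatory arrays gave Rragd signals between 377 and 566, with a median of 507, against 96.2 to 193, with a median of 128, in stimulatory arrays. Rragd fell in each preparation, by 1.90 ± 0.06 (adjusted p = 2.26e-13), and Stau2 had group means of 893 at 2, 879 at 5, 405 at 10 and 280.5 at 30 mmol/l (-1.39 ± 0.05, adjusted p = 1.95e-13). Of the 3 other tested Stau2 probe sets, 1 fell (-1.65) and 2 were not called (0.07 and -0.11, adjusted p = 0.235 and 0.574 by limma), and the mean of all 4 fell by 0.77. Map3k20, a kinase that senses stalled ribosomes, fell in 1 step from 306 ± 26.4 at 5 to 69.4 ± 20.6 at 10 mmol/l (SD, n = 4), and so did Wls, which ferries Wnt ligands to the cell surface, from 811 ± 88.6 to 378 ± 48.0. Their differences were -2.24 ± 0.10, adjusted p = 3.99e-12, and -1.12 ± 0.06, adjusted p = 2.4e-11. The tight junction gene Tjp3 (-3.33 ± 0.25), the transcription factor Mybl1 (-2.94 ± 0.15), the DNA repair gene Rdm1 (-3.01 ± 0.29), Inka2 (-2.65 ± 0.11) and Spetex2l2 (-2.64 ± 0.10) also had no overlap. Adcy8, a calcium-activated adenylyl cyclase named here after its values were seen, went from 92.3 ± 18.1 at 2 to 13.7 ± 8.51 at 30 mmol/l (-2.35 ± 0.24, adjusted p = 1.95e-07). In Gtse1, Tjp3, Mybl1, Rdm1, Adcy8, and likewise in Fas, Rnf144b, Cdkn2b and Icam1, the mean log2 signal of the stimulatory arrays lay under that of a signal of 25.4, the level needed for testing, as did the sub-stimulatory mean of Bpifa2f. These genes passed the filter through 1 side, and their log2 differences depend on dim values: with 50 added to each signal that of Gtse1 was -1.73, that of Fas -1.74 and that of Adcy8 -0.98.

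**Figure D2:**
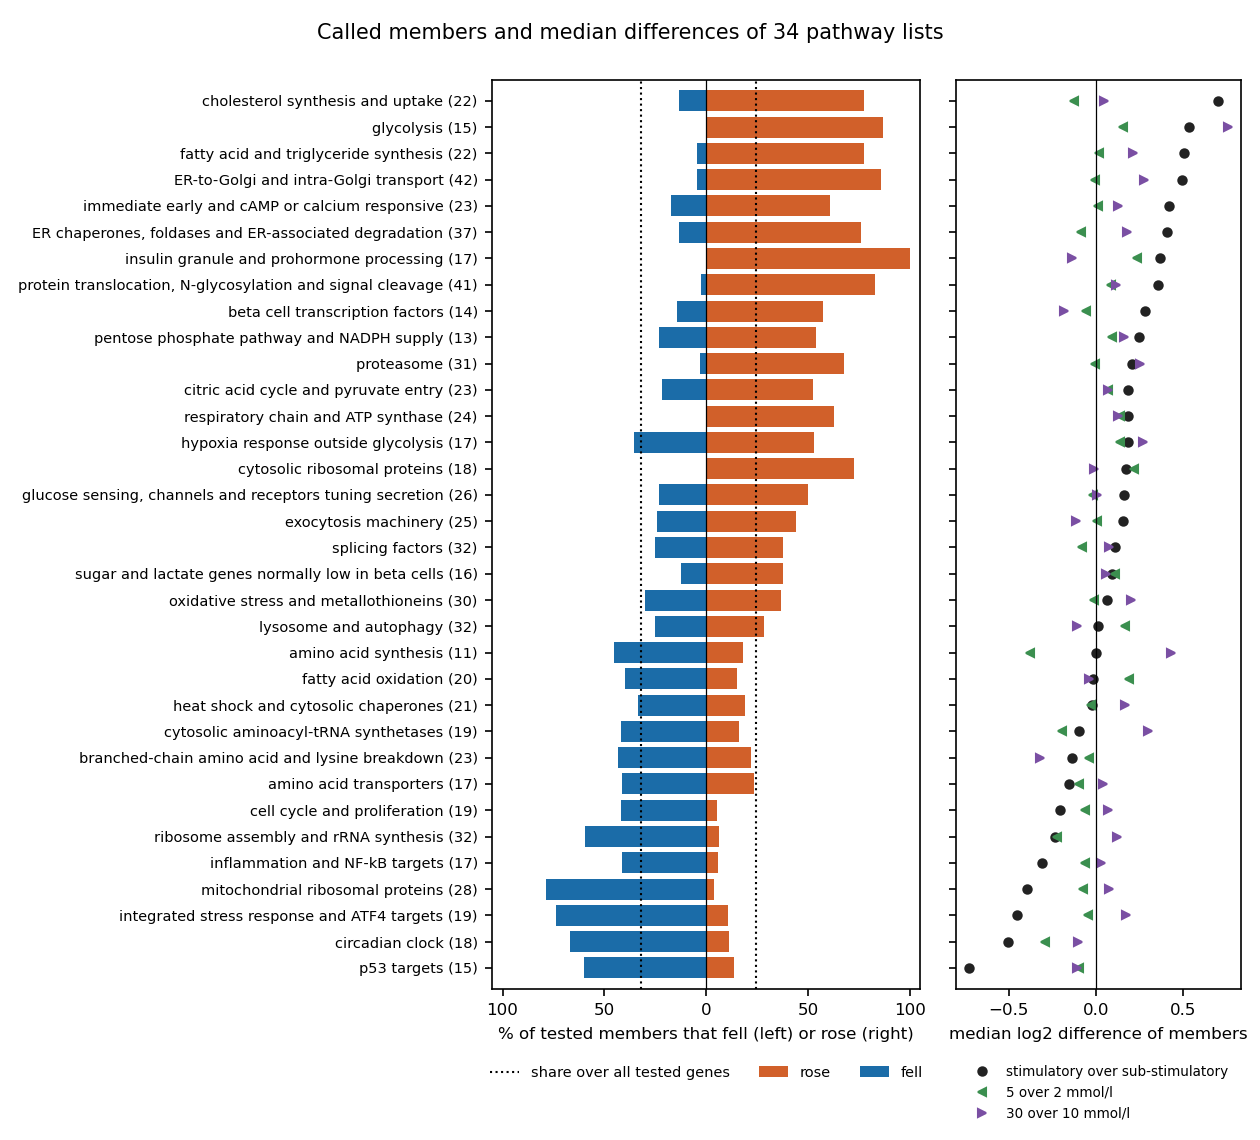
Left: share of the tested members of 34 gene lists that fell or rose at stimulatory glucose (numbers tested in brackets; dotted lines, shares over all tested genes, 31.9% and 24.3%). Right: median log2 difference of the members in the main comparison and in the 5 over 2 and 30 over 10 mmol/l comparisons. Cholesterol synthesis had the highest median (0.70) and p53 targets the lowest (-0.73).

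Transcripts of the integrated stress response were lower at stimulatory glucose. In this response, stress kinases phosphorylate the initiation factor eIF2, general protein synthesis slows, and the factor ATF4 is made and induces genes for amino acid supply and for feedback. Of the list, 2 of 19 tested members rose, 14 fell and 3 did not pass, with a median log2 difference of -0.45, and in 10 members all stimulatory arrays lay below all sub-stimulatory ones. Among all tested genes 24.3% rose and 31.9% fell, and 9.02% lay wholly below. Here and in the other lists, a count of 2 in either direction varied from 0 to 3 when single arrays or preparations were left out. All lists and their members were chosen with earlier results of these data known, so their counts describe and do not test. From 2 to 5 mmol/l 1 member of the stress response list rose and 1 fell. From 10 to 30 mmol/l 8 members rose and 0 fell (median 0.17), beside 8.11% and 9.59% of all tested genes. Ddit3, the death-promoting factor CHOP, led the decreases between the sides. Sub-stimulatory arrays gave Ddit3 signals between 1315 and 1928, with a median of 1666, against 198 to 614, with a median of 245, in stimulatory arrays. The sides did not overlap, though preparation 4 stayed higher than the others at 10 and 30 mmol/l (614 and 490 against at most 261), and the difference was -2.52 ± 0.13, adjusted p = 3.25e-11 (share 99.9%). Trib3 signals ran from 963 to 1608 (median 1185) in the 8 sub-stimulatory arrays and from 186 to 404 (median 312) in the 8 stimulatory ones. Trib3, a pseudokinase that ATF4 induces, was low in every stimulatory array (-2.01 ± 0.07, adjusted p = 4.59e-13). Ppp1r15a, which directs the phosphatase that reverses eIF2 phosphorylation, had group means of 1102 at 2, 1012 at 5, 256 at 10 and 338 at 30 mmol/l (-1.85 ± 0.07, adjusted p = 8.73e-13). Atf3 (-1.78 ± 0.16, adjusted p = 2.93e-08), Cebpb (-1.41 ± 0.07, adjusted p = 3.25e-11) and the secreted stress factor Gdf15, named after its values were seen (-2.13 ± 0.12, adjusted p = 1.58e-10), fell too. Atf4 itself, whose output is set largely at translation, was not called: its signals were 4989.7 to 5956 and 4601 to 5862 (-0.08 ± 0.04, adjusted p = 0.0819), but it fell under quantile normalization (-0.33, adjusted p = 4.85e-07) and without 30 mmol/l replicate 2 (adjusted p = 0.0393). By limma it also fell without the 2 mmol/l arrays (-0.13, adjusted p = 0.0346) and without the 30 mmol/l arrays (-0.17, adjusted p = 0.0047). In 10 over 5 mmol/l alone Atf4 fell too (-0.22, adjusted p = 0.00706). Atf5, also named after its values were seen, went the other way, from 482 ± 65.7 at 2 and 919 ± 128 at 5 to 1079 ± 132 at 10 and 1212 ± 116 at 30 mmol/l (0.78 ± 0.05, adjusted p = 2.47e-10), with much of its rise already at 5 mmol/l.

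Among cytosolic aminoacyl-tRNA synthetases, which load amino acids on tRNA, 3 of 19 tested members rose, 8 fell and 8 did not pass (median -0.09), whereas from 2 to 5 mmol/l 1 rose and 7 fell, and from 10 to 30 mmol/l 12 rose and 0 fell (over all tested genes these comparisons called 6.46% and 8.11% higher and 4.98% and 9.59% lower). Between the sides 15.8% of the synthetases rose and 42.1% fell, beside 24.3% and 31.9% of all tested genes. In low glucose the lowest, median and highest signal of Aars1 were 1476, 1996 and 2659, and in high glucose they were 738, 1056 and 1331. Alanine's synthetase Aars1 fell by 0.94 ± 0.06 (adjusted p = 2.97e-10) without overlap, and its group means were 2354 at 2, 1753 at 5, 897 at 10 and 1237 at 30 mmol/l. Serine's synthetase Sars1 (-0.87 ± 0.06, adjusted p = 1.18e-09), tyrosine's Yars1 (-0.69 ± 0.04, adjusted p = 8.54e-11) and methionine's Mars1 (-0.60 ± 0.05, adjusted p = 8.01e-09) followed the same order of means. Of amino acid synthesis genes, 2 of 11 tested members rose, 5 fell and 4 did not pass (median -0.00), and from 2 to 5 mmol/l 0 rose and 4 fell, and from 10 to 30 mmol/l 6 rose and 0 fell. Between the sides these are 18.2% up and 45.5% down, beside the same shares of all tested genes. Mthfd2, of mitochondrial folate metabolism, had means of 1322 at 2, 1096 at 5, 769 at 10 and 933 at 30 mmol/l (-0.51 ± 0.06, adjusted p = 1.35e-06), and Aldh18a1, the first enzyme of proline synthesis, rose (0.74 ± 0.05, adjusted p = 9.59e-10). Of amino acid transporters, 4 of 17 tested members rose, 7 fell and 6 did not pass (4 fell without replicate 2). These are 23.5% and 41.2%, beside 24.3% and 31.9% of all tested genes. From 10 to 30 mmol/l 2 of the transporters rose and 0 fell. Those that fell include the glutamate carrier Slc1a3 (-0.92 ± 0.12, adjusted p = 4.2e-06) and the arginine carrier Slc7a1 (-0.32 ± 0.05, adjusted p = 1.35e-05).

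ATF4 and C/EBP factors share a binding element, TGATGNAA, whose letters were searched on both strands from 250 bases before to 50 after the start of each gene. RefSeq's promoter table (build GRCr8) held 8566 of the 10223 tested genes. A match was present in 1.94% of all of them, in 1.99% of called increases and in 2.25% of called decreases. It was present in 4 of 16 stress response promoters (25.0%) and in 7 of 17 synthetase promoters (41.2%). Of the 4 stress response genes with a match, 3 fell and 1 was not called (median -0.38). Of the 12 without, 9 fell, 1 rose and 2 were not called (median -0.63). Of the 7 synthetases with a match, 4 fell, 2 rose and 1 was not called, and of the 10 without, 3 fell, 1 rose and 6 were not called. All 3 amino acid transporters with a match fell, as did 3 of the 11 without. The 1 amino acid synthesis gene with a match was not called, and 5 of the 9 without fell. Promoters of 3 genes that fell are shown for this element (capitals), those of Trib3 (chr3:161275484-161275783, minus strand), Aars1 (chr19:55908232-55908531, plus strand) and Mars1 (chr7:65023704-65024003, minus strand), each written 5′ to 3′ along its gene. In Aars1, capitals also mark an E-box, CACGTG.
Trib3 promoter: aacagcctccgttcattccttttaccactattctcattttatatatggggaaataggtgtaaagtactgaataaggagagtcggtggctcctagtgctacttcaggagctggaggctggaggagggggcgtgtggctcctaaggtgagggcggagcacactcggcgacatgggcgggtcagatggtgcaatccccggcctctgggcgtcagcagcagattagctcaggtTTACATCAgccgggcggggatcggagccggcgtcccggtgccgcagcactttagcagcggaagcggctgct
Aars1 promoter: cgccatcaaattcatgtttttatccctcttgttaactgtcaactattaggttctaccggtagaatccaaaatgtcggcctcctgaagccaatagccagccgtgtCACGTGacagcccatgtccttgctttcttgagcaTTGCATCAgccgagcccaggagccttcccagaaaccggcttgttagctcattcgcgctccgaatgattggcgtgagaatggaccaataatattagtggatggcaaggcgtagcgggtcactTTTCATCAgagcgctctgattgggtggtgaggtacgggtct
Mars1 promoter: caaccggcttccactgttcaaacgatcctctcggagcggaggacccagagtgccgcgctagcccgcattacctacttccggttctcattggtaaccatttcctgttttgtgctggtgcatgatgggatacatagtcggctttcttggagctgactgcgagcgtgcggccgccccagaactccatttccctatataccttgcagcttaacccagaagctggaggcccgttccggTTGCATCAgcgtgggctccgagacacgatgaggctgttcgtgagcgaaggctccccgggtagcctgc
In these 3 promoters the element lies on the opposite strand, so its letters stand in reverse complement. A match is a description of letters and not a measured site.

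Targets of p53, a factor that halts the cell cycle after damage, had the lowest median of the 34 pathway lists. Of 15 tested members, 2 rose, 9 fell and 4 did not pass, with a median of -0.73, and 8 lay wholly below their sub-stimulatory range. Over all tested genes 24.3% rose and 31.9% fell, and 9.02% lay wholly below. Phlda3, an Akt inhibitor that p53 induces, had the smallest p of any decrease. Phlda3 signals ran from 332 to 601 (median 491) in the 8 sub-stimulatory arrays and from 27.7 to 78.2 (median 44.7) in the 8 stimulatory ones. The high-glucose arrays were low without exception (-3.43 ± 0.10, adjusted p = 9.32e-14, -3.61 to -2.91 by preparation). Sub-stimulatory arrays gave Fas signals between 129.7 and 241, with a median of 181, against 10.3 to 31.6, with a median of 17.2, in stimulatory arrays. The death receptor Fas was low at both stimulatory concentrations, with no overlap (-3.32 ± 0.18, adjusted p = 7.06e-11, with its mean stimulatory level under that needed for testing). Mdm2, the ubiquitin ligase that p53 induces against itself, had means of 1023 at 2, 817 at 5, 318 at 10 and 348 at 30 mmol/l (-1.46 ± 0.05, adjusted p = 5.17e-13), and Cdkn1a, the p21 brake on the cell cycle, of 378 at 2, 351 at 5, 178 at 10 and 164 at 30 mmol/l (-1.08 ± 0.12, adjusted p = 5.13e-07). Rnf144b, a ubiquitin ligase outside the list, fell likewise (-2.39 ± 0.16, adjusted p = 8.32e-10). Of cell cycle genes, 1 of 19 tested members rose, 8 fell and 10 did not pass (median -0.21). These are 5.26% up and 42.1% down, beside the same 24.3% and 31.9%. Tyms, which makes thymidylate for DNA (-1.38 ± 0.11), the inhibitor Cdkn2b (-1.89 ± 0.20) and the replication clamp Pcna (-0.33 ± 0.05) fell, while Ccnd1, cyclin D1, rose (0.55 ± 0.07, adjusted p = 1.36e-06), though not in 10 over 5 mmol/l alone (0.12, adjusted p = 0.266 by limma).

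Clock genes, mostly the repressors and output factors, were lower at stimulatory glucose. In the circadian clock, BMAL1 and CLOCK drive E-box genes, among them the PER, CRY and REV-ERB repressors that feed back on them and the output factors DBP, TEF and HLF. In the list 2 of 18 tested members rose, 12 fell and 4 did not pass (median -0.50). Beside them, 24.3% of all tested genes rose and 31.9% fell. Dbp spanned 480.2 to 1119.6 (median 664) below and 39.8 to 122 (median 81.2) above the threshold. Dbp fell at each step of concentration (means 932 at 2, 599 at 5, 102 at 10 and 51.1 at 30 mmol/l; -3.37 ± 0.13, adjusted p = 6.49e-13). Nr1d2, a REV-ERB repressor, went from 1687 ± 149 at 5 to 857 ± 73.1 at 10 and 484 ± 36.3 at 30 mmol/l (-1.45 ± 0.05, adjusted p = 3.73e-13). Per2 (-0.95 ± 0.05, adjusted p = 6.82e-11), Hlf (-1.36 ± 0.08, adjusted p = 1.34e-10) and Nr1d1 (-1.30 ± 0.15, adjusted p = 8e-07) also had no overlap. The 2 members that rose, named after their values were seen, were Bmal1 (0.51 ± 0.11) and Npas2, a relative of CLOCK (0.37 ± 0.10), and Npas2 was level without the 30 mmol/l arrays (-0.00). All arrays of a preparation shared 1 culture time of 18 h, and time of day was not given in the labels.

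**Figure D3:**
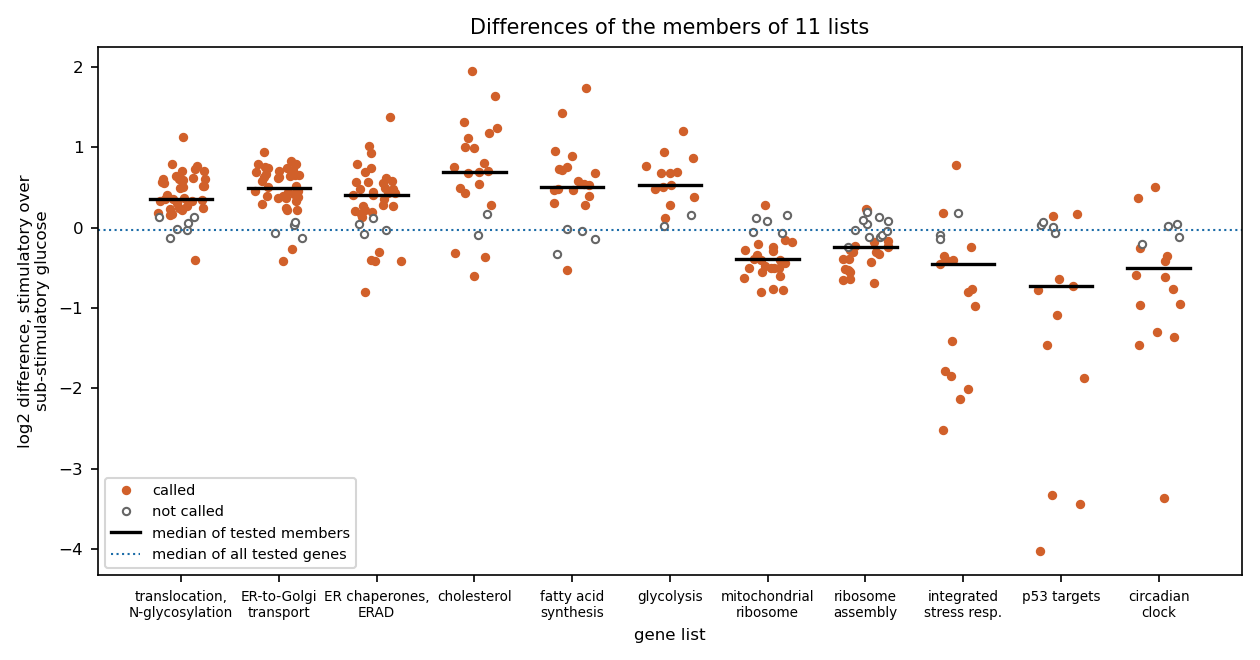
Log2 difference, stimulatory over sub-stimulatory glucose, of each tested member of 11 lists (filled, called; open, not called), with each list's median and the median of all tested genes (-0.03). Members of the 3 secretory pathway lists on the left lay mostly between 0 and 1, and those of the stress response, p53 and clock lists on the right reached below -2.

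Most listed genes of the early secretory pathway rose. Newly made hormone precursors enter the ER through the translocon, lose their signal peptide, receive N-glycans and disulfide bonds, and leave for the Golgi in coated vesicles. Among genes of translocation, N-glycosylation and signal cleavage, 34 of 41 tested members rose, 1 fell and 6 did not pass (median 0.36), and in 19 of them no stimulatory array overlapped a sub-stimulatory one. Over all tested genes 24.3% rose and 31.9% fell, and 5.53% lay wholly above their sub-stimulatory range. In low glucose the lowest, median and highest signal of Rpn2 were 1926, 2365 and 2951, and in high glucose they were 3402, 3813 and 4147. This subunit of the oligosaccharyltransferase was above its low-glucose range in each array (0.70 ± 0.04, adjusted p = 1.69e-10). Tram1, of the translocation channel, and Spcs3, of the signal peptidase, rose with means of 2458 at 2, 2645 at 5, 3951 at 10 and 4043 at 30 mmol/l and of 3071 at 2, 3329 at 5, 5019 at 10 and 4856 at 30 mmol/l (0.65 ± 0.04 and 0.62 ± 0.04), but a dimmer probe set of Tram1 fell (-0.34, adjusted p = 0.00871 by limma). Of ER-to-Golgi and intra-Golgi transport genes, 36 of 42 tested members rose, 2 fell and 4 did not pass (median 0.49), 19 of them without overlap. Sec23b signals ran from 1371 to 2021 (median 1681) in the 8 sub-stimulatory arrays and from 2304 to 3559 (median 2902) in the 8 stimulatory ones. Sec23b, of the COPII coat that buds from the ER, rose in every preparation (0.80 ± 0.04, adjusted p = 1.59e-11), and the cargo receptor Surf4 (0.79 ± 0.04) and the GTPases Sar1a (0.83 ± 0.05) and Arf4 (0.62 ± 0.03) did so as well. Of transport genes, 27 also rose from 10 to 30 mmol/l and 1 fell, and from 2 to 5 mmol/l 3 rose and 4 fell.

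ER chaperones, foldases and degradation genes rose in 28 of 37 tested cases and fell in 5 (median 0.41). The shares over all tested genes were 24.3% and 31.9%. Edem2 spanned 234 to 342 (median 257) below and 592 to 825 (median 698) above the threshold. Edem2 starts the trimming of glycans on misfolded proteins, and its sides did not overlap (1.37 ± 0.07, adjusted p = 4.63e-11). The disulfide isomerase Pdia6 rose by 0.57 ± 0.04, the co-chaperone Dnajc3 by 0.70 ± 0.05 and the calcium-binding Creld2, which was lowest at 5 mmol/l, by 0.93 ± 0.06. Hspa5, the bright chaperone BiP, had means of 7058 at 2, 7102 at 5, 8100.3 at 10 and 9058 at 30 mmol/l (0.27 ± 0.03, adjusted p = 2.6e-06), a direction that turned under quantile normalization (-0.05, adjusted p = 0.125). Herpud1, which is on both this list and that of the stress response, fell (-0.40 ± 0.04). Of proteasome subunits, 21 of 31 tested members rose, 1 fell and 9 did not pass (median 0.21), with the base subunit Psmd2 at 1098 at 2, 1130.3 at 5, 1489.5 at 10 and 1826 at 30 mmol/l (0.57 ± 0.04, adjusted p = 1.58e-09). From 2 to 5 mmol/l 0 subunits rose and 4 fell, from 10 to 30 mmol/l 21 rose and 0 fell, and without the 30 mmol/l arrays 9 rose and 4 fell (median 0.06). Lysosome and autophagy genes were split, with 9 up and 8 down of 32 (28.1% and 25.0%, beside 24.3% and 31.9% of all tested genes). Under quantile normalization 5 were up and 13 down. Optn, an autophagy receptor, fell (-0.83 ± 0.06, adjusted p = 5.27e-09), and Atp6v1a, a subunit of the proton pump, rose (0.50 ± 0.05, adjusted p = 1.65e-07).

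Hormone and granule transcripts were modestly higher, in a range of brightness where the direction depended on the scaling. All 17 tested genes of the insulin granule and prohormone processing rose, with a median of 0.36, but under quantile normalization 7 of 17 did (median 0.05). In the deposited scaling 24.3% of all tested genes rose. Iapp signals ran from 6685 to 9500.2 (median 7909) in the 8 sub-stimulatory arrays and from 9579.9 to 13360.0 (median 10328) in the 8 stimulatory ones. Iapp, amylin, is released with insulin, and its sides did not overlap (0.43 ± 0.04, adjusted p = 1.76e-08), but under quantile normalization it was not called (0.02, adjusted p = 0.434). Ins1 had means of 6498 at 2, 8283 at 5, 9607 at 10 and 8721 at 30 mmol/l (0.32 ± 0.05, adjusted p = 2e-05), and under quantile normalization its difference was -0.03 (adjusted p = 0.398). Gcg rose by 0.33 ± 0.04 and turned to -0.03 (adjusted p = 0.358) in the same way. Sst, somatostatin, rose by 0.41 ± 0.04, and Pyy by 0.77 ± 0.06. The group mean of each of these hormones was highest at 10 mmol/l. Granule genes of lower signal rose too: Ptprn, an autoantigen of the granule membrane, by 0.64 ± 0.05, its relative Ptprn2 by 0.59 ± 0.04, and the granin Scg3 by 0.50 ± 0.03. Of the exocytosis machinery, 11 of 25 tested members rose, 6 fell and 8 did not pass (median 0.15), and 3 fell without replicate 3 or with no replicate block and 0 without the 30 mmol/l arrays. In the main comparison these are 44% up and 24% down, beside 24.3% and 31.9% of all tested genes. The Rab27 effector Sytl4 rose from 674 ± 166 at 5 to 1339 ± 249 at 10 mmol/l (1.06 ± 0.06, adjusted p = 1.58e-10), as did Rab3d (0.94 ± 0.06) and the SNARE gene Snap25 (0.64 ± 0.04).

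The 200 brightest probe sets shifted up, without an even trend over all tested ones. In 5 equal classes of mean signal, from dimmest to brightest, medians were 0.0839, -0.0008, -0.0595, -0.0604 and 0.0523 in the deposited scaling. The median log2 difference of the 200 brightest tested probe sets was 0.26 in the deposited scaling, -0.02 after quantile normalization and 0.32 after median centring. Cytosolic ribosomal proteins, which are among the brightest genes, depended on this choice: 13 of 18 rose and 0 fell (median 0.17), against 1 and 10 after quantile normalization (median -0.08). With the deposited scaling 24.3% of all tested genes rose and 31.9% fell. Rps9 rose by 0.42 ± 0.04. From 2 to 5 mmol/l 15 of them rose, and from 10 to 30 mmol/l 0 rose and 0 fell. Genes of the respiratory chain and ATP synthase behaved likewise, with 15 of 24 up and 0 down, and 8 up and 4 down after quantile normalization. Ndufa4, of its complex IV, rose (0.85 ± 0.07, adjusted p = 5.73e-09).

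**Figure D4:**
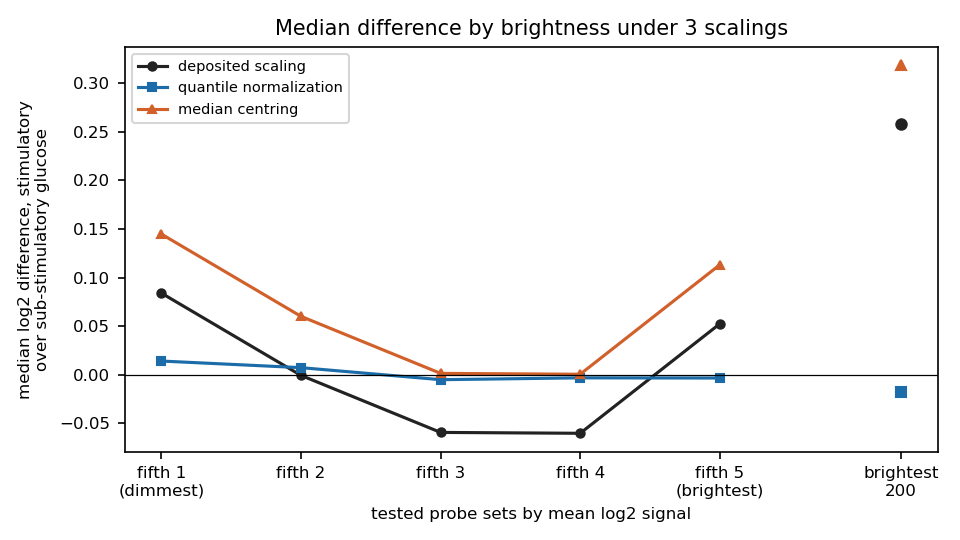
Median log2 difference, stimulatory over sub-stimulatory glucose, of tested probe sets in 5 equal classes of mean signal and of the 200 brightest, under 3 scalings of the arrays. The 200 brightest stood at 0.26 with the deposited scaling, at 0.32 with median centring and at -0.02 with quantile normalization.

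Beta cell regulators did not move as 1 group. Of beta cell transcription factors, 8 of 14 tested members rose, 2 fell and 4 did not pass (median 0.28). These are 57.1% up and 14.3% down, beside 24.3% and 31.9% of all tested genes. Sub-stimulatory arrays gave Mafa signals between 2409.8 and 3446, with a median of 2549, against 3379 to 4556, with a median of 3941, in stimulatory arrays. Mafa, an activator of the insulin gene, rose (0.56 ± 0.04, adjusted p = 2.93e-09), with the top of its low range above the bottom of its high range. Pax6 (0.46 ± 0.04, adjusted p = 8.21e-08) and Hnf4a (0.75 ± 0.08, adjusted p = 4.49e-07) rose as well. Pdx1, which drives insulin and glucose transporter genes, fell, with means of 753 at 2, 615 at 5, 567 at 10 and 446 at 30 mmol/l (-0.44 ± 0.07, adjusted p = 3.75e-05), and was not called in 10 over 5 mmol/l alone (-0.14, adjusted p = 0.262 by limma). Nkx6-1 was not called (-0.09 ± 0.06, adjusted p = 0.208), but passed under quantile normalization (adjusted p = 0.0318) and without replicate 3 (adjusted p = 0.0374). It passed as well without the 5 mmol/l arrays (-0.23, adjusted p = 0.0158 by limma). In the list of glucose sensing, channels and receptors, 13 of 26 tested members rose, 6 fell and 7 did not pass (median 0.16). Slc2a2 signals ran from 3075 to 4759 (median 3668) in the 8 sub-stimulatory arrays and from 6594 to 8486 (median 7204) in the 8 stimulatory ones. Slc2a2 codes for GLUT2, the main glucose transporter of rat beta cells, and all its stimulatory arrays were higher (0.96 ± 0.04, adjusted p = 6.24e-13). Abcc8, the sulfonylurea receptor, rose by 0.23 ± 0.05 (adjusted p = 0.00034) with overlapping ranges, and was not called with no replicate block (adjusted p = 0.096 by limma).

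Most genes of lipid synthesis rose. Of cholesterol genes, 17 of 22 tested members rose, 3 fell and 2 did not pass (median 0.70). In 9 of them all stimulatory arrays lay above all sub-stimulatory ones, and in 1 all lay below. Over all tested genes 24.3% rose and 31.9% fell, and 5.53% lay wholly above and 9.02% wholly below. In low glucose the lowest, median and highest signal of Idi1 were 225, 268 and 545, and in high glucose they were 756, 1098 and 1693. Idi1, which makes the building blocks of isoprenoids, was higher in each stimulatory array (1.95 ± 0.09, adjusted p = 6.93e-12), and Dhcr7 (1.64 ± 0.10, adjusted p = 4.32e-10), Sqle (1.32 ± 0.07, adjusted p = 6.74e-11) and Msmo1 (1.24 ± 0.06, adjusted p = 3.29e-11), of the later steps, rose too. From 2 to 5 mmol/l 1 member rose and 3 fell, and from 10 to 30 mmol/l 1 rose and 1 fell. Of fatty acid and triglyceride synthesis genes, 17 of 22 tested members rose, 1 fell and 4 did not pass (median 0.51). Scd2 spanned 1417 to 2094 (median 1863) below and 4065 to 5442 (median 4906) above the threshold. Both desaturases, Scd2 (1.42 ± 0.05, adjusted p = 4.17e-13) and the dimmer Scd (1.74 ± 0.13, adjusted p = 4.02e-09), rose, as did Fasn, fatty acid synthase (0.90 ± 0.06, adjusted p = 2.28e-09), and Acaca, the carboxylase before it (0.31 ± 0.06, adjusted p = 0.000551). Of fatty acid oxidation genes, 3 of 20 rose and 8 fell (median -0.02), beside 24.3% and 31.9% of all tested genes. Acadl, Hadhb and Etfa had their highest mean at 5 mmol/l and had differences of -0.48 ± 0.06, -0.42 ± 0.05 and -0.41 ± 0.04, while Hadh, which beta cells hold in abundance, rose by 0.35 ± 0.04. Pdk4 was not called (0.12 ± 0.05, adjusted p = 0.0509), with a p between 0.012 and 0.143 when single arrays were left out. It passed by limma without the 30 mmol/l arrays (0.29, adjusted p = 0.000221) and in 10 over 5 mmol/l alone (0.26, adjusted p = 0.00597). Branched-chain amino acid and lysine breakdown genes fell in 10 of 23 cases and rose in 5 (3 without replicate 3, or without 2 mmol/l replicate 1 or replicate 3 of 5, 10 or 30 mmol/l). Their median was -0.14, against -0.32 from 10 to 30 mmol/l, where 14 fell and 2 rose. From 2 to 5 mmol/l 2 rose and 2 fell. Bckdha, of the complex that commits branched-chain keto acids, fell without overlap (-1.20 ± 0.12, adjusted p = 1.71e-07), and Aass, which starts lysine breakdown, rose and was highest at 10 mmol/l (0.80 ± 0.05, adjusted p = 8.56e-10).

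Most glycolysis genes rose, and the list's median was larger still within the stimulatory range. Of its genes, 13 of 15 tested members rose, 0 fell and 2 did not pass (median 0.53), and the median was 0.15 from 2 to 5 and 0.76 from 10 to 30 mmol/l, where 11 rose. Between the sides 24.3% of all tested genes rose and 31.9% fell, and from 10 to 30 mmol/l 8.11% rose. Sub-stimulatory arrays gave Tpi1 signals between 791 and 1154, with a median of 959, against 1387 to 3787, with a median of 2238, in stimulatory arrays. Triose phosphate isomerase, Tpi1, was thus higher on the stimulatory side throughout (1.21 ± 0.07, adjusted p = 7.06e-11), yet its mean rose again at 30 mmol/l (868 at 2, 1047 at 5, 1450.1 at 10 and 3339.8 at 30 mmol/l). Enolase 1, Eno1, had 911 at 2, 964 at 5, 1132 at 10 and 2834 at 30 mmol/l (0.94 ± 0.05, adjusted p = 1.29e-10), and its 10 mmol/l arrays overlapped the low range. Without the 2 and 30 mmol/l arrays, which leaves 10 over 5 mmol/l, 5 of 15 rose and 1 fell. In the citric acid cycle and pyruvate entry, 12 of 23 tested members rose, 5 fell and 6 did not pass (median 0.19; 3 fell without 10 mmol/l replicate 1), with Ogdh (0.63 ± 0.06, adjusted p = 5.9e-08) and Mdh1 (0.50 ± 0.03, adjusted p = 6.56e-10) up in 1 step. Of the pentose phosphate and NADPH list, 7 of 13 tested members rose, 3 fell and 3 did not pass (median 0.25). Me1, malic enzyme, rose (0.47 ± 0.04, adjusted p = 5.1e-08), and Idh2, the mitochondrial isocitrate dehydrogenase, fell without overlap, from 1787 ± 103 at 2 to 866 ± 40.3 at 30 mmol/l (-0.79 ± 0.05, adjusted p = 2.65e-10).

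Ribosome genes of mitochondria and of ribosome assembly were lower. Mitochondrial ribosomal proteins serve the translation of the few proteins coded in mitochondrial DNA, and 22 of 28 tested members fell, 1 rose and 5 did not pass (median -0.39). Among all tested genes 31.9% fell and 24.3% rose. In low glucose the lowest, median and highest signal of Mrpl30 were 355, 400.4 and 436, and in high glucose they were 206, 235 and 265. Mrpl30, of the large subunit, fell in 1 step (-0.78 ± 0.06, adjusted p = 8.27e-09, share 99.1%), as did Mrps35 of the small one (-0.76 ± 0.07, adjusted p = 9.17e-08). Of ribosome assembly and rRNA synthesis genes, 2 of 32 tested members rose, 19 fell and 11 did not pass (median -0.24), and 9 fell without the 2 mmol/l arrays. Rrn3, which brings RNA polymerase I to its promoters, had means of 1007 at 2, 1014 at 5, 712 at 10 and 673 at 30 mmol/l (-0.55 ± 0.04, adjusted p = 2.01e-09), and Polr1c, a polymerase subunit, fell by 0.65 ± 0.05. Splicing factors were split, with 12 up and 8 down of 32 (median 0.11), beside 24.3% and 31.9% of all tested genes. Srsf1 signals ran from 293 to 499.5 (median 372) in the 8 sub-stimulatory arrays and from 638 to 943 (median 768) in the 8 stimulatory ones. The SR proteins Srsf1 (1.05 ± 0.05, adjusted p = 3.26e-11), Srsf2 (1.01 ± 0.06) and Srsf6 (0.82 ± 0.05) rose without overlap.

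Of immediate early and cAMP or calcium responsive genes, 14 of 23 tested members rose, 4 fell and 5 did not pass (median 0.42; 2 fell without replicate 2, and 9 rose without the 2 mmol/l arrays). The shares among all tested genes were 24.3% up and 31.9% down. Crem spanned 190.4 to 272 (median 237) below and 459.9 to 1064 (median 764) above the threshold. Crem, whose short form is a cAMP-induced repressor, rose (1.58 ± 0.06, adjusted p = 1.23e-12), and the phosphodiesterases Pde10a (1.46 ± 0.06, adjusted p = 2.03e-12) and Pde4b (1.19 ± 0.08, adjusted p = 1.76e-09), which break down cyclic nucleotides, rose with it. Fos stayed dim, at 17.1 to 70.5 and 74.8 to 175 (1.96 ± 0.18, adjusted p = 4e-08). The element of CREB-family factors in such promoters is TGACGTCA, present in 3.40% of all promoters, in 3.92% of called increases and in 3.62% of called decreases. It was present in 5 of the 18 promoters of this list (27.8%). Promoters of Gpr6 (chr20:46075202-46075501, minus strand), which rose, and of Ppp1r15a (chr1:105139547-105139846, minus strand), which fell, both held it and are set side by side with this element in capitals. Below them stands that of Tmem215 (chr5:60408337-60408636, plus strand), the gene whose increase had the smallest p, with an E-box in capitals. An E-box, CACGTG, was present in 9.79% of all promoters, 7.94% of called increases and 11.8% of called decreases.
Gpr6 promoter: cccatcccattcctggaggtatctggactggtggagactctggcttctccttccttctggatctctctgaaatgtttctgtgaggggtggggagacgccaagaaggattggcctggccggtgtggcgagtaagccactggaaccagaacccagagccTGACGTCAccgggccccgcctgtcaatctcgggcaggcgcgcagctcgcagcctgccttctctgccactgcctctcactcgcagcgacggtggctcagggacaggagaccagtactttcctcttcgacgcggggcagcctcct
Ppp1r15a promoter: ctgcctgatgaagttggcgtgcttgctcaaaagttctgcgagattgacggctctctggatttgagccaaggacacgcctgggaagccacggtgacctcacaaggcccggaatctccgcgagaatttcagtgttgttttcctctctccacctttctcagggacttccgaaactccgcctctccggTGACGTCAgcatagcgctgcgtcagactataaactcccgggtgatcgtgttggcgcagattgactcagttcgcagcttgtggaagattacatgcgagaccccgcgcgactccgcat
Tmem215 promoter: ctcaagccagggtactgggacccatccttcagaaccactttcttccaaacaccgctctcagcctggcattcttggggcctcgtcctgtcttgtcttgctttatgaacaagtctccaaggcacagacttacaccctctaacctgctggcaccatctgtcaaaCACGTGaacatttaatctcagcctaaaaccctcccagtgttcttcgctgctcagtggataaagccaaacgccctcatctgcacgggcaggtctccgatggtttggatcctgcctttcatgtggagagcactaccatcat
Gpr6 and Ppp1r15a carry the same letters and changed in opposite directions. Any part of the element in these changes was not tested. No match in the 6 promoters printed overlaps another.

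Stress lists outside the ATF4 group were split, beside 24.3% of all tested genes that rose and 31.9% that fell. Of oxidative stress and metallothionein genes, 11 of 30 tested members rose, 9 fell and 10 did not pass (median 0.06). Txn1, thioredoxin, and Sod1, superoxide dismutase, rose by 0.48 ± 0.04 and 0.39 ± 0.04, while Nfe2l2, the NRF2 regulator of antioxidant genes, fell without overlap (-0.48 ± 0.05, adjusted p = 1.58e-07). Of heat shock genes, 4 of 21 tested members rose (19.0%), 7 fell (33.3%) and 10 did not pass, near the shares over all tested genes. Hspa9, the mitochondrial HSP70, fell (-0.58 ± 0.06, adjusted p = 1.01e-07). Hspa1a, the inducible HSP70, stood apart in preparation 4, at 1548 at 5, 1445 at 10 and 647 at 30 mmol/l, where the other preparations stayed at or below 137 (-1.10 ± 0.18, adjusted p = 4.73e-05), and with no replicate block it was not called (adjusted p = 0.199 by limma). Of hypoxia response genes outside glycolysis, 9 of 17 tested members rose, 6 fell and 2 did not pass (3 fell without replicate 2 or without replicate 4, and 4 rose without the 30 mmol/l arrays). Hif1a, the factor itself, fell from 2091 ± 68.7 at 2 to 1262 ± 14.6 at 30 mmol/l (-0.53 ± 0.03, adjusted p = 6.35e-10), and P4ha2, a collagen hydroxylase, rose (0.59 ± 0.06, adjusted p = 3.04e-07). Of inflammation and NF-kB targets, 1 of 17 tested members rose, 7 fell and 9 did not pass (median -0.31). Icam1, an adhesion molecule, fell on dim and overlapping signals of 35.8 to 181 and 2.90 to 62.2 (-2.50 ± 0.31, adjusted p = 1.97e-06), and the interleukin 1 receptor Il1r1 rose without overlap (0.94 ± 0.04, adjusted p = 1.12e-11). Of genes that beta cells normally keep low, 6 of 16 tested members rose, 2 fell and 8 did not pass. Ldha, lactate dehydrogenase A, rose (0.77 ± 0.10, adjusted p = 5.73e-06) and the lactate carrier Slc16a1 fell (-1.11 ± 0.16, adjusted p = 9.25e-06).

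Markers of the cell types in the tissue were counted in the same way, beside 24.3% of all tested genes that rose and 31.9% that fell. Among tested markers, 5 of 7 rose for beta cells (2 under quantile normalization), 5 of 8 rose for alpha cells, 3 of 6 for delta cells, 2 of 4 for PP and epsilon cells, 1 of 5 for duct cells, 0 of 6 for endothelial cells, 2 of 7 for macrophages and 7 of 13 for stellate cells (4 without replicate 1, 2 with no replicate block or without the 10 mmol/l arrays, and 3 without the 2 mmol/l arrays). In each of these 8 lists 1 marker fell, except for duct cells, where 2 did. Fn1, fibronectin, which is also made by other cells, rose (1.14 ± 0.10, adjusted p = 1.88e-08), and the duct keratin Krt7 fell without overlap (-0.74 ± 0.05, adjusted p = 3.83e-10). Bhlha15, which acinar and other secretory cells use, rose (1.28 ± 0.14, adjusted p = 4.54e-07) while the other acinar markers stayed dim. Of neural markers, 0 of 2 rose and 1 fell. The part of these shifts in the other results was not tested.

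Some called genes had more of their between-concentration variation within the sides than between them. Of called increases, 362 had under 50% of this variation in the main contrast, as had 375 of the called decreases. The remainder lay in the steps from 2 to 5 and from 10 to 30 mmol/l, and these counts do not separate the steps. Pcdh9, a protocadherin, Tnfrsf11b, which codes for osteoprotegerin, and the calcium sensor Vsnl1 peaked at 10 mmol/l and fell again at 30. Sub-stimulatory arrays gave Tnfrsf11b signals between 350.4 and 612, with a median of 486, against 347 to 872, with a median of 604, in stimulatory arrays. The ranges overlapped, as 10 mmol/l arrays were high and 30 mmol/l arrays low, and the main difference of 0.25 ± 0.06 (adjusted p = 0.00235) stood beside -1.04 ± 0.09 from 10 to 30 mmol/l. Pcdh9 had 0.25 ± 0.07 (adjusted p = 0.00766, 0.0735 without replicate 1) beside -1.06 ± 0.10, and Vsnl1 0.20 ± 0.06 (adjusted p = 0.00557) beside -1.0 ± 0.08. Without the 10 mmol/l arrays, these 3 differences turned negative, and with no replicate block Tnfrsf11b and Vsnl1 were not called (adjusted p = 0.0743 and 0.139 by limma). The metallothionein Mt2A, which binds zinc, the haem oxygenase Hmox1 and Myc had the opposite course, with their lowest mean at 10 mmol/l. In low glucose the lowest, median and highest signal of Hmox1 were 426, 945 and 1528, and in high glucose they were 121, 555 and 1490.1. Its means were 1251 at 2, 764 at 5, 264 at 10 and 1058 at 30 mmol/l, which gave -0.99 ± 0.13 (adjusted p = 5.88e-06) between the sides and 2.11 ± 0.19 from 10 to 30 mmol/l, and without the 10 mmol/l arrays its difference turned to 0.07 (adjusted p = 0.725). Mt2A had -2.42 ± 0.37 (adjusted p = 2.52e-05) beside 3.0 ± 0.52, and Myc -1.38 ± 0.19 (adjusted p = 8.26e-06) beside 1.41 ± 0.27. Bhlhe40, a clock repressor, was not called (-0.11 ± 0.14, adjusted p = 0.542), though its means were 88.3 at 2, 58.9 at 5, 34.5 at 10 and 126 at 30 mmol/l.

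**Figure D5:**
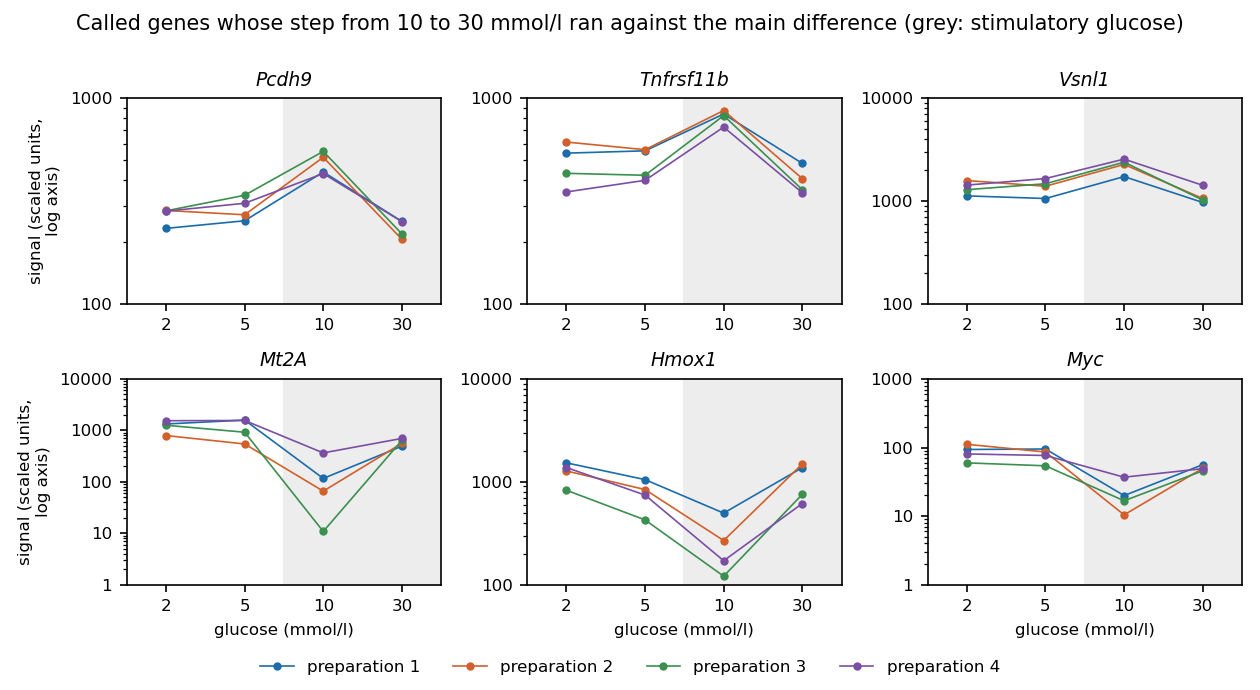
Signals (log axis, deposited scaled units) of 6 called genes whose change from 10 to 30 mmol/l ran against the main difference. Each point is 1 array, each line 1 of 4 preparations, and grey marks stimulatory glucose. The upper 3 genes peaked at 10 mmol/l and the lower 3 had their lowest value there in all 4 preparations.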

How the data were processed

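RNA of cultured islets was measured on 16 Affymetrix Rat230_2 arrays, 4 per glucose concentration. The deposited values are linear signal intensities that the authors made with GCOS, per the submitters' processing notes, and all arrays share 1 trimmed mean. Run information in the scanner files (unit: other, per the file headers) served to find runs, scan days and chip lots. Signals under 3.4, the 10th percentile, were set to 3.4 and log2 transformed. The upper 60% of probe sets by mean, 18625 of 31042, were tested with limma 3.58.1 in R 4.3.3 (4 group means, replicate number as block, eBayes with trend, 9 residual degrees of freedom, two-sided, Benjamini-Hochberg over all tested probe sets, threshold 0.05). The fit was tested on simulated data. Its 2 further contrasts, 5 over 2 and 30 over 10 mmol/l, share all 16 arrays with the main one.

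Of the probe sets, 20826 have 1 gene symbol in GEO's platform annotation, 436 several and 9780 none, and the brightest stood for a gene. Same-numbered arrays deviated together (correlations of 0.136 to 0.434 over 24 pairs, -0.264 to 0.13 over 72 others). Named genes were the extremes by difference, p-value, share and opposing steps, the leading members of 44 lists, and a list of well-known islet genes. Members and lists were chosen with earlier results of these data known. Of 1009 listed genes 911 matched, and the others were not analysed here. Alternatives covered blocks, scaling, filters, floor, eBayes settings, thresholds, concentrations and omitted arrays.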

Additional observations from a re-analysis of the deposited data

Results flagged for a closer look

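A value was marked when 1 of 4 replicates lay far from the other 3, by Dixon's criterion, and chance marks about 1 in 20 such groups. Of 725 groups examined, 32 were marked. Those of preparation 4 in Hspa1a, Ddit3, Ppp1r15a and Map3k20 come first. Hspa1a at 5 mmol/l had a signal of 1548.2 in replicate 4, against 121.0 to 136.6 in the others. Hspa1a at 10 mmol/l had a signal of 1445.0 in replicate 4, against 84.6 to 108.2 in the others. Hspa1a at 30 mmol/l had a signal of 647.4 in replicate 4, against 70.2 to 92.0 in the others. Ddit3 at 10 mmol/l had a signal of 613.6 in replicate 4, against 197.9 to 225.6 in the others. Ddit3 at 30 mmol/l had a signal of 489.9 in replicate 4, against 242.5 to 260.8 in the others. Ppp1r15a at 10 mmol/l had a signal of 340.9 in replicate 4, against 221.0 to 233.7 in the others. Map3k20 at 10 mmol/l had a signal of 100.2 in replicate 4, against 56.9 to 61.7 in the others. The cause was not tested.

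Single signals that lay apart in the other genes were as follows. Acadl at 2 mmol/l had a signal of 318.4 in replicate 2, against 392.2 to 395.2 in the others. Adcy8 at 2 mmol/l had a signal of 65.5 in replicate 3, against 97.1 to 103.9 in the others. Atf5 at 30 mmol/l had a signal of 1040.1 in replicate 2, against 1246.5 to 1285.0 in the others. Bmal1 at 30 mmol/l had a signal of 120.7 in replicate 2, against 147.7 to 153.1 in the others. Gem at 5 mmol/l had a signal of 73.4 in replicate 3, against 100.1 to 103.1 in the others. Hadh at 2 mmol/l had a signal of 4538.8 in replicate 1, against 4739.6 to 4781.9 in the others. Hif1a at 5 mmol/l had a signal of 2016.2 in replicate 2, against 1792.8 to 1823.6 in the others. Ins2 at 30 mmol/l had a signal of 7761.3 in replicate 2, against 6067.7 to 6179.7 in the others. Mrps35 at 30 mmol/l had a signal of 253.0 in replicate 3, against 221.9 to 225.7 in the others. Msmo1 at 10 mmol/l had a signal of 2039.0 in replicate 1, against 1297.2 to 1366.5 in the others. Nfe2l2 at 5 mmol/l had a signal of 1403.7 in replicate 2, against 1209.1 to 1226.5 in the others. Npas2 at 5 mmol/l had a signal of 93.5 in replicate 3, against 66.1 to 69.5 in the others. Pcdh9 at 2 mmol/l had a signal of 233.0 in replicate 1, against 282.6 to 284.7 in the others. Ptprn at 30 mmol/l had a signal of 2539.5 in replicate 1, against 1795.6 to 1844.4 in the others. Pyy at 10 mmol/l had a signal of 429.9 in replicate 3, against 719.5 to 781.0 in the others. Scg3 at 30 mmol/l had a signal of 6051.0 in replicate 1, against 7071.8 to 7270.4 in the others. Spcs3 at 5 mmol/l had a signal of 3089.2 in replicate 4, against 3388.3 to 3424.1 in the others. Srsf1 at 2 mmol/l had a signal of 395.2 in replicate 1, against 292.9 to 306.7 in the others. Sst at 30 mmol/l had a signal of 8495.5 in replicate 2, against 7547.0 to 7662.4 in the others.

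Differences that lay apart in 1 preparation were these. The Aldh18a1 difference between the sides was 0.9 on the log2 scale in preparation 4, against 0.67 to 0.71 in the other preparations. The Bckdha difference between the sides was -0.63 on the log2 scale in preparation 4, against -1.4 to -1.35 in the other preparations. The Fasn difference between the sides was 1.06 on the log2 scale in preparation 2, against 0.83 to 0.87 in the other preparations. The Hnf4a difference between the sides was 0.95 on the log2 scale in preparation 1, against 0.67 to 0.7 in the other preparations. The Mfsd2a difference between the sides was 3.0 on the log2 scale in preparation 1, against 2.22 to 2.35 in the other preparations. The Phlda3 difference between the sides was -2.91 on the log2 scale in preparation 4, against -3.61 to -3.6 in the other preparations. In each of these genes the sign was the same in all 4 preparations.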

How the results depend on the processing

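The numbers pair the arrays, since each is 1 islet preparation, so the replicate block was kept. With no replicate block the main comparison called 8067 probe sets in place of 9614, that of 5 over 2 mmol/l 485 (310 higher, 175 lower) in place of 1839, and that of 30 over 10 mmol/l 1271 (608 higher, 663 lower) in place of 2754. Leaving out 1 array gave 9130 to 9361 calls in the main comparison (4291 to 4481 higher, 4787 to 4933 lower), and leaving out 1 preparation 8287 to 8813 (3855 to 4137 higher, 4393 to 4676 lower). Over both kinds of omission, 5 over 2 mmol/l called 752 (without replicate 1) to 1868 (491 to 1112 higher, 261 to 768 lower) and 30 over 10 mmol/l 1559 (without replicate 3) to 2834 (731 to 1263 higher, 828 to 1571 lower). The Actb ratio difference then ran from 0.0977 to 0.143, that of Gapdh from -0.0143 to 0.0216 and that of the hybridization controls from 0.248 to 0.312. The 10 over 5 mmol/l comparison alone, with fewer arrays, called 5696 probe sets (2810 higher, 2886 lower), and 2742 passed with at least a 1.5-fold difference (1240 higher, 1502 lower). Without the level filter 490 were lower from 2 to 5 mmol/l. Median centring raised the main calls to 9756, with 5543 higher, or 56.8% against 47.5%.

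Of 41 alternatives for each of 145 named genes, 9 values of genes called in the main comparison turned sign, and so did 8 values of the 4 genes that were not called (Atf4, Bhlhe40, Nkx6-1 and Pdk4). Of these 8, Bhlhe40 without the 10 mmol/l arrays passed the threshold (0.833, adjusted p = 0.000998), and without the 30 mmol/l arrays it was -1.0539. Quantile normalization turned Gcg (-0.0264), Hspa5 (-0.0546), Ins1 (-0.0336) and Ins2 (-0.0081), and leaving out the 10 mmol/l arrays turned Pcdh9 (-0.2772), Tnfrsf11b (-0.2667), Vsnl1 (-0.2997) and Hmox1 (0.067). Npas2 was -0.0008 without the 30 mmol/l arrays. The cause was not tested. With no replicate block Abcc8, Hspa1a, Tnfrsf11b and Vsnl1 were not called (adjusted p = 0.096, 0.199, 0.0743 and 0.139 by limma), and no other named gene lost its call there. In 10 over 5 mmol/l alone Abcc8, Acaca, Ccnd1, Npas2 and Pdx1 were not called (adjusted p = 0.184, 0.0516, 0.266, 0.325 and 0.262), and 28 called values of named genes moved by over 1.5 times, as did 19 without the 30 mmol/l arrays, 22 with 50 added to each signal and 16 under quantile normalization. Within scan day 2, with fewer arrays, Acaca, Npas2, Pcdh9, Tnfrsf11b and Vsnl1 were not called (adjusted p = 0.127, 0.167, 0.0924, 0.113 and 0.2), and with 2 pooled groups of 8 the same 5 except Acaca were not (0.0906, 0.306, 0.284 and 0.381). Vsnl1 was not called under quantile normalization (0.167), Npas2 without the 5 mmol/l arrays (0.303) and Pcdh9 without the 2 mmol/l arrays (0.107).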
